A study of Mus musculus with 6 samples.

Results

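The mitotic spindle, kinetochore and checkpoint genes are 54 genes whose products carry a cell through G2 and mitosis: the mitotic cyclins and their kinase, the spindle checkpoint, the chromosomal passenger complex, the centromere and kinetochore, the spindle motors, the cytokinesis machinery and the proteins that start anaphase. They were chosen by symbol for these roles, with earlier results of these data known, and all 54 were found among the 21851 genes of the tables. RNA-seq was run on hematopoietic stem cells (HSCs), taken from the bone marrow of mice by sorting for Lineage-, Sca-1+, c-Kit+, CD150+, Flt3- and CD48-. There were 3 libraries from untreated wild-type mice, called control, and 3 from wild-type mice exposed to ionizing radiation, called irradiated. Both groups share the genotype and the sort. The sources used here give no radiation dose, no time between exposure and sorting, no age and no number of mice behind a library. Nor do they state whether a group's libraries are separate mice, so the p-values reflect the spread among these samples alone, and that spread may be technical.

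In mitosis the cyclin-dependent kinase CDK1, activated by A and B cyclins and by CDC25 phosphatases, drives chromosome condensation and spindle assembly. Kinetochores built on centromeres bind spindle microtubules, and the spindle checkpoint holds back the anaphase-promoting complex (APC/C) until all chromosomes are attached; CDC20 then activates the complex, separase cuts cohesin and the cell divides. Most of these genes are transcribed in G2 and M phase under the MuvB complex with B-MYB and FOXM1. HSCs of adult bone marrow are known to be mostly quiescent, and these genes are known to be expressed mainly in cells that cycle. In bulk RNA, fewer cycling cells and less RNA per cell cannot be told apart.

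Values are in FPKM, a unit that scales fragment numbers to transcript length and to the size of the library. The 6 libraries summed to between 485166 and 489838 FPKM over all genes. Steps between low values correspond to about 14400000 to 16300000 fragments per library, so 1 FPKM over 1 kb of transcript rests on about 14.4 to 16.3 fragments. By this estimate the members rested on at least 115 fragments in every library, Cenpv having the fewest. Libraries correlated across genes at 0.9982 to 0.9985 within groups and 0.9901 to 0.9904 between groups (Pearson, log2 values). The interval given with a difference is the 95% interval of the limma fit.

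The RNA of 3 markers went against the labelled sort. Cd48, which the sort should exclude, was at 396, 401 and 403 FPKM in controls and 359, 343 and 352 FPKM in irradiated libraries. Flt3, also excluded by the sort, was at 126, 124 and 127 FPKM in controls and 64.4, 67.2 and 65.5 FPKM after irradiation. Slamf1, which encodes the selected marker CD150, was at 3.14, 3.61 and 3.95 FPKM and at 5.13, 5.46 and 4.58 FPKM. By control mean, Cd48 stood at percentile 98.3 of the tested genes, Flt3 at 92.3 and Slamf1 at 20.6. These values are RNA and not surface protein, and they differed between the groups in all 3 genes (limma adjusted p = 5.4e-05, 4.06e-09 and 0.00135). The selected markers Kit and Ly6a were at 97.5 ± 1.72 and 203 ± 5.13 FPKM in controls and 96.7 ± 1.65 and 157 ± 5.17 FPKM in irradiated libraries. The cells are called HSCs here after their label, and the part of these markers in the mitotic differences was not tested.

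The promoters of 46 of the 54 genes were found in the RefSeq table (build GRCm38.p6). Mitotic promoters are known for 2 elements: the cell cycle genes homology region (CHR), bound by MuvB, searched here as TTTGAA, and the CCAAT box, bound by NF-Y. Both were searched on both strands of the 250 bases before the start site. A CCAAT box was present in 32 of the 46 promoters (69.6%), against 37.5% of all 27025 genes with a promoter. At least 2 CCAAT boxes were present in 22 (47.8%, against 11.5%), a TTTGAA in 16 (34.8%, against 18.3%) and both elements in 14 (30.4%, against 6.5%). Among the 8020 tested genes with a promoter, 41.4% held a CCAAT box, 16.0% at least 2, 12.7% a TTTGAA and 5.0% both elements. No TTTGAA shared a base with a CCAAT box in the last 150 bases of these promoters. The promoters of 5 members are shown as examples, without those of the largest falls, Kif4, Cdc25c and Cenpa (-0.42, -0.35 and -0.33). Of the 5, Ccnb2 and Cdc20 fell, Top2a and Kif11 rose a little, and Cenpv rose most. Each is the 150 bases before the start site, read 5′ to 3′ on the gene's strand, with TTTGAA and CCAAT matches on either strand in capitals.
Ccnb2: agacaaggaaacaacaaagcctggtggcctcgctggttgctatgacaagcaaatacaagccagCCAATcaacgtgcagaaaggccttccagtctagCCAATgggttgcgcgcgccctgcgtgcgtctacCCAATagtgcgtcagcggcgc
Cdc20: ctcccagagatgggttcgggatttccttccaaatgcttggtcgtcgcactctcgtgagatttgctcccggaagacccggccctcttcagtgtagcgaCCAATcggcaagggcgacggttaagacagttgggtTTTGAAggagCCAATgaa
Top2a: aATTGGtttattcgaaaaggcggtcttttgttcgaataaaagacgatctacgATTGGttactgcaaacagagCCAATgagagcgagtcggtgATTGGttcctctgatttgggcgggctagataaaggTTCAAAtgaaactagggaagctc
Kif11: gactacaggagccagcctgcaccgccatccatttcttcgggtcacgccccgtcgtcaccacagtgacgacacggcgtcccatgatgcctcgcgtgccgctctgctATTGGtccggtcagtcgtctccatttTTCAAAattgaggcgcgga
Cenpv: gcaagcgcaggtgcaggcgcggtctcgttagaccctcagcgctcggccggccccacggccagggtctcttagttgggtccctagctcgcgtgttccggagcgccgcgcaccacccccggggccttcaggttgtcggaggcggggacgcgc
They lie at chr9:70421555-70421704 (minus strand), chr4:118437344-118437493 (minus strand), chr11:99024190-99024339 (minus strand), chr19:37376232-37376381 (plus strand) and chr11:62539262-62539411 (minus strand). Both elements occurred among genes that fell and among genes that rose, but not in all of them. Of the 9 promoters of members called higher, 5 held a CCAAT box and 3 a TTTGAA, and of the 13 of members called lower, 9 and 5 did. Members that were not called held a CCAAT box in 18 of 24 promoters and a TTTGAA in 8. Cenpv, the member with the largest difference, held neither in the bases shown. Kif18a, Kif20b and Anln, the next largest rises (0.44, 0.36 and 0.24), held neither in the last 150 bases of their promoters. Among members called lower, Cenph, Pttg1 and Mad2l1 (-0.25, -0.21 and -0.09) held neither there. A match is a description of the letters and was not tested as a binding site.

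The mitotic genes as a whole stood at nearly the same level in irradiated and control HSCs. Of the 54 members 10 rose, 15 fell and 29 were not called in irradiated HSCs (limma on log2(FPKM + 1), Benjamini-Hochberg adjusted p under 0.05 over 10281 genes), while 27 lay under an unadjusted p of 0.05. Over all tested genes 54.7% were called, 25.8% higher and 28.9% lower. The counts given below for each role are to be read beside these shares. The members' 25 calls, or 46.3%, are somewhat below the share over all genes, and this gap was not tested. Their median difference on the log2(FPKM + 1) scale was -0.00099, against -0.0072 over all genes tested. Differences were small: on the log2(FPKM + 1) scale 6 of the 54 members were past 1.2-fold, all of them called, while 22.2% of all genes tested were called and past that size. By the ratio of the FPKM means Cenpe, at 1.21, was past it as well. Among called genes the median size of the difference was 0.19 for the members and 0.23 for all genes. Called or not, it was 0.08 for the members and 0.14 for all genes tested. The members' median control mean was higher (34.6 against 13.3 FPKM), and its part in these sizes was not tested. For 28 of the 29 members not called, the interval of the difference on that log2 scale lay within 1.2-fold in either direction; the exception was Foxm1. In 29 members the groups did not overlap, with irradiated values higher in 11 and lower in 18, while over all genes 61.7% had groups that did not overlap.

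**Figure D1:**
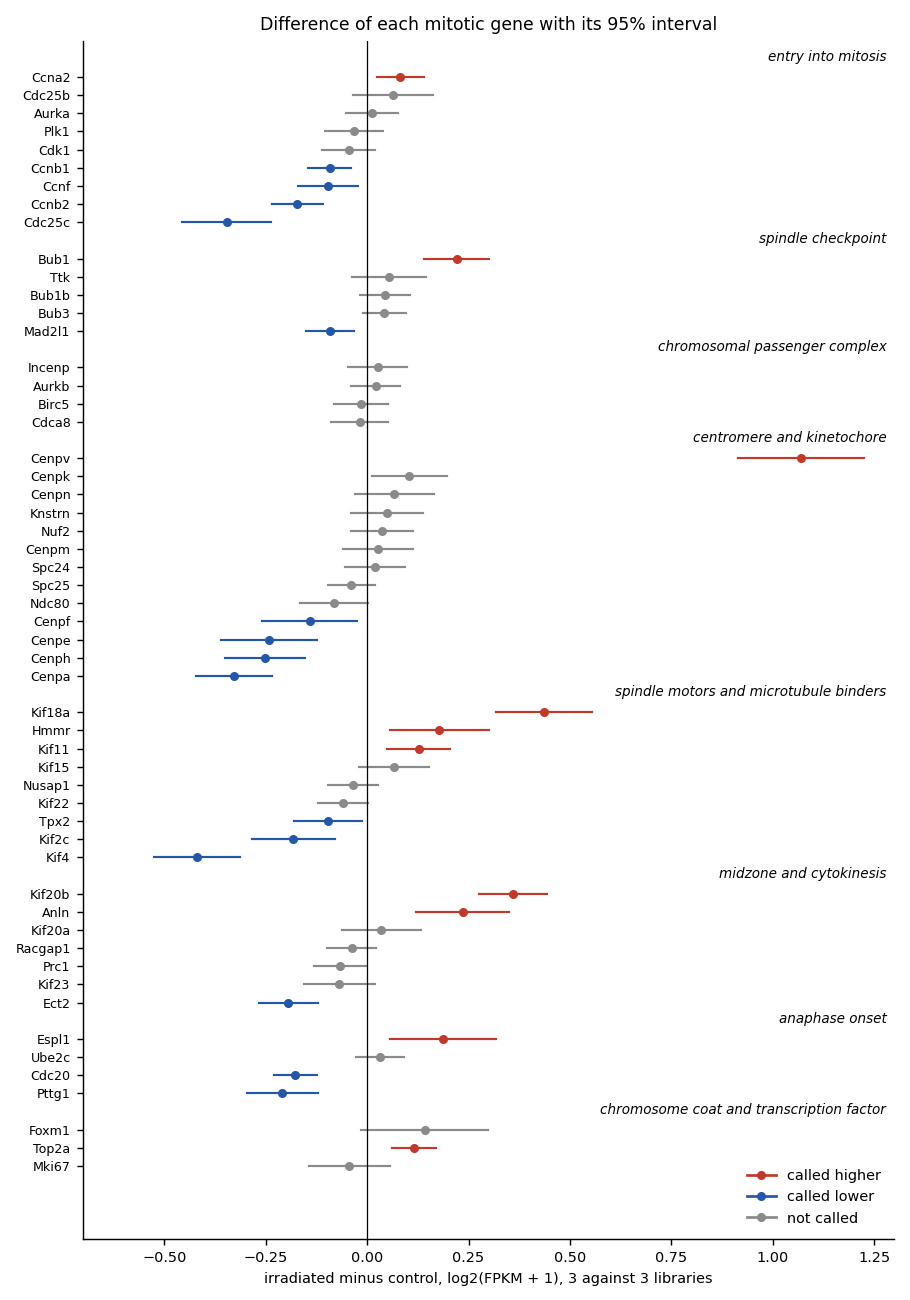
Difference between irradiated and control HSCs in log2(FPKM + 1) for each of the 54 genes, grouped by role, with points for the limma estimate from 3 against 3 libraries and lines for its 95% interval. Red genes were called higher (10), blue genes lower (15) and grey genes were not called (29); Cenpv stands apart at 1.07.

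The level of most of these genes was not low in the sorted cells. All 54 members reached at least 1 FPKM in every library, and all therefore passed the filter on low values. Their control means ran from 4.43 (Cenpf) to 176 FPKM (Ube2c), with a median of 34.6 FPKM, against 13.3 FPKM for the median of all genes tested. In controls 42 members lay above the median tested gene and 7 above the 90th percentile. Summed over the 54 genes, the control libraries held 2626, 2615 and 2641 FPKM and the irradiated libraries 2579, 2563 and 2584 FPKM. All irradiated sums were below all control sums, and the sum was 0.536% to 0.541% of a control library and 0.523% to 0.533% of an irradiated library. The proliferation marker Mki67, which encodes the coat of mitotic chromosomes, was at 6.59, 6.61 and 6.86 FPKM in controls and 6.55, 6.31 and 6.51 FPKM in irradiated libraries. By control mean Mki67 stood at percentile 34.2 of the tested genes. It was not called (difference -0.04, interval -0.14 to 0.06), although its irradiated values were all below its control values.

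**Figure D2:**
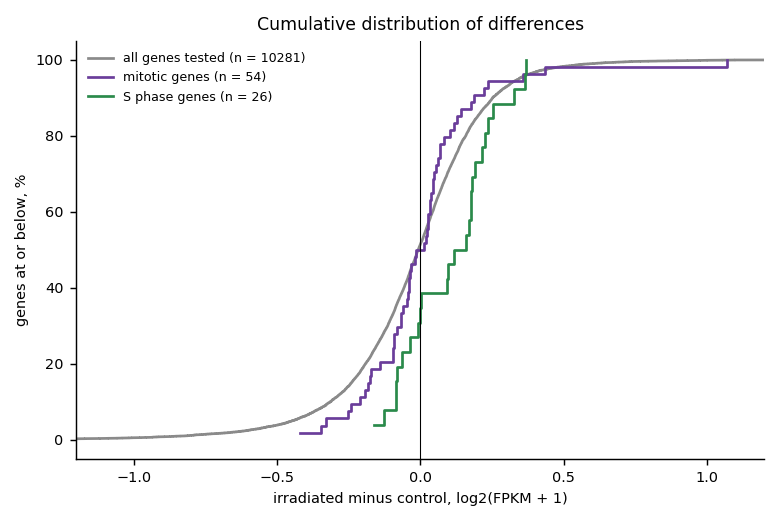
Cumulative distribution of the differences between irradiated and control HSCs in log2(FPKM + 1) for all 10281 genes tested, the 54 mitotic genes and 26 S phase genes. The curve of the mitotic genes crosses 50% near 0, as that of all genes does, and that of the S phase genes crosses it at 0.14.

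Among the genes of mitotic entry, the B cyclins and Cdc25c fell while cyclin A2 rose slightly. In this group of 9, 1 gene rose, 4 fell and 4 were not called. Ccnb2, a B-type cyclin that activates CDK1, stood at 158.6, 156.6 and 165.7 FPKM in controls and at 145.9, 140.1 and 140.4 FPKM after irradiation. Every irradiated library lay below every control, and the difference was -0.17 (SE 0.028, adjusted p = 0.000538). Ccnb1, the main mitotic cyclin, fell from 141 ± 1.26 to 132 ± 2.76 FPKM (SD, n = 3; -0.09, limma adjusted p = 0.00734). Its value is uncertain because 42.1% of the 50-base words of its longest transcript also occur in pseudogenes such as Ccnb1-ps. Cdc25c, a phosphatase that removes the inhibitory phosphates of CDK1, had 9.48, 9.63 and 10.6 FPKM in controls and 7.72, 7.5 and 7.47 FPKM in irradiated libraries, a ratio of 1.31-fold in the means (difference -0.35, SE 0.049, adjusted p = 0.000232). The groups did not overlap, and 12.7% of the annotated exon bases of Cdc25c lie opposite Gm3550.

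Cyclin F (Ccnf), the substrate receptor of an SCF ubiquitin ligase in G2, fell from 39.9 ± 0.523 to 37.3 ± 1.33 FPKM (adjusted p = 0.0312 by limma). That call was lost on leaving out control replicate 1, 2 or 3 or irradiated replicate 1 or 2 (adjusted p up to 0.107), and without the mean-variance trend. Ccna2, the cyclin of S phase and G2, rose from 69.9 ± 1.41 to 74.0 ± 0.597 FPKM (0.08, adjusted p = 0.0219 by limma), and this was lost without control replicate 3 (0.086) or irradiated replicate 3 (0.0669) and without the mean-variance trend. Of its annotated exon bases 12.5% lie opposite Exosc9, and whether the authors counted by strand was not stated. The kinases did not pass the test: Cdk1 was at 69.5 ± 0.957 and 67.3 ± 2.05 FPKM, Plk1 at 56.7 ± 2.08 and 55.4 ± 0.871 FPKM, and Aurka at 58.2 ± 1.38 and 58.7 ± 1.12 FPKM. Cdc25b, the phosphatase of early prophase, was likewise not called, at 15.8 ± 0.734 and 16.6 ± 0.567 FPKM. Within this group the cyclins moved in opposite directions and the kinases they bind or act beside stayed within an interval of -0.11 to 0.08.

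**Figure D3:**
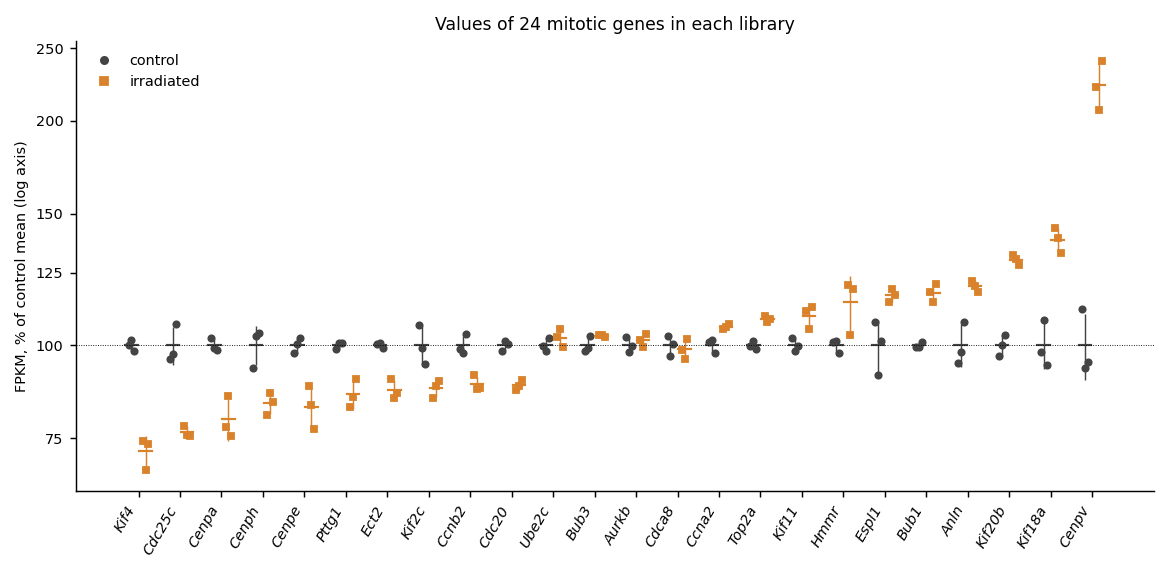
FPKM of 24 mitotic genes in each library as a percentage of the gene's control mean, on a log axis, with circles for the 3 control and squares for the 3 irradiated libraries, short bars for means and lines for ± 1 SD. From the left, 10 genes lie below their controls, 4 overlap them (Ube2c, Bub3, Aurkb, Cdca8) and 10 lie above; Cenpv lies farthest, with a ratio of the means of 2.23.

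Of the 5 spindle checkpoint genes 1 was higher, 1 lower and 3 not called. Bub1, a kinase of the outer kinetochore that recruits the other checkpoint proteins, had 16.0, 16.0 and 16.2 FPKM in controls and 18.9, 18.4 and 19.4 FPKM after irradiation (difference 0.22, SE 0.036, limma adjusted p = 0.000577). The irradiated libraries were all above the controls. Mad2l1, which encodes the MAD2 inhibitor of CDC20, fell from 81.4 ± 0.683 to 76.4 ± 1.95 FPKM (-0.09, adjusted p = 0.0146 by limma), a call lost without irradiated replicate 3 (0.057). Bub3, the partner of BUB1 and BUBR1 and the most abundant checkpoint gene, stood at 147.5, 148.8 and 154.4 FPKM in controls and 155.1, 154.9 and 154.3 FPKM in irradiated libraries. These values overlapped and were not called (0.04, interval -0.01 to 0.10). Bub1b, which encodes BUBR1, and the kinase gene Ttk were not called, with differences of 0.04 and 0.05.

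None of the 4 genes of the chromosomal passenger complex was called by limma, and none had groups that did not overlap; none lay under an unadjusted p of 0.05. This complex corrects wrong attachments at the centromere and then moves to the midzone. Its kinase gene Aurkb was at 108.1, 103.0 and 105.0 FPKM in controls and 107.1, 104.7 and 109.1 FPKM in irradiated libraries (0.02, interval -0.04 to 0.08). Cdca8 (borealin) was at 102 ± 3.05 and 101.1 ± 3.19 FPKM, Birc5 (survivin) at 49.4 ± 0.501 and 48.9 ± 1.42 FPKM, and the scaffold gene Incenp at 31.7 ± 0.455 and 32.3 ± 0.986 FPKM. Their intervals together span -0.09 to 0.10.

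Centromere and kinetochore genes held both the largest rise and several of the largest falls. In this group of 13, 1 gene rose, 4 fell and 8 were not called. Cenpv encodes a protein of centromeric chromatin and of the midzone; the gene lies on chromosome 11. Its values were 9.13, 7.61 and 7.76 FPKM in controls and 18.1, 16.9 and 19.6 FPKM in irradiated libraries. The lowest irradiated library was well above the highest control, and the difference of 1.07 (SE 0.070, limma adjusted p = 1.49e-06) was a ratio of 2.23 in the means. In every other member the ratio of the means was smaller. Cenpa, the histone H3 variant that marks the centromere (chromosome 5), fell from 89.3, 86.5 and 85.9 FPKM to 67.8, 74.5 and 65.8 FPKM (difference -0.33, SE 0.042, adjusted p = 0.000112 by limma). Cenph, of the inner kinetochore network, fell from 40.1, 44.3 and 44.6 FPKM to 34.7, 37.1 and 36.1 FPKM (-0.25, SE 0.044, limma adjusted p = 0.000909). In both genes all irradiated libraries were below all controls.

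Cenpe, a kinesin that carries chromosomes to the spindle equator, fell from 7.77, 7.99 and 8.13 FPKM to 7.01, 6.61 and 6.14 FPKM (-0.24, SE 0.053, limma adjusted p = 0.00318). Cenpf, a large protein of the outer kinetochore, fell from 4.43 ± 0.169 to 3.92 ± 0.131 FPKM (limma adjusted p = 0.042), and this was lost without control replicate 2 or 3 or without irradiated replicate 1, 2 or 3 (adjusted p 0.0602 to 0.12), and also with no filter on low values or after rescaling. The 4 genes of the NDC80 complex, which grips the microtubule, were not called. Spc24 was at 92.9, 94.0 and 97.2 FPKM in controls and 97.0, 91.7 and 99.6 FPKM after irradiation, with overlapping groups (0.02, interval -0.05 to 0.09). Ndc80 was at 35.5 ± 1.3 and 33.5 ± 1.16 FPKM, Nuf2 at 41.0 ± 0.749 and 42.1 ± 1.58 FPKM, and Spc25 at 65.4 ± 0.982 and 63.6 ± 0.538 FPKM. Ndc80 was called lower without control replicate 3 or irradiated replicate 1 (adjusted p down to 0.041). The inner kinetochore genes Cenpm and Cenpn and the spindle-binding Knstrn were not called, with differences of 0.03, 0.07 and 0.05. Cenpk, at 28.2 ± 0.678 and 30.4 ± 1.66 FPKM, just missed the threshold (adjusted p = 0.0569) and was called higher without irradiated replicate 3 (0.0132) and after rescaling of the libraries. Cenph and Cenpk encode partners of 1 subcomplex, and their estimates had opposite signs.

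Spindle motors and other microtubule binders changed in both directions, with 3 of 9 genes higher (33.3%), 3 lower (33.3%) and 3 not called. These shares lie near the 25.8% higher and 28.9% lower of all genes tested. Kif18a, a kinesin that damps the movements of aligned chromosomes, stood at 10.2, 11.3 and 9.79 FPKM in controls and 14.9, 14.5 and 13.9 FPKM in irradiated libraries (difference 0.44, SE 0.053, limma adjusted p = 8.5e-05; a ratio of 1.39). Kif4, a chromokinesin that shapes chromosome arms and the midzone (chromosome X), moved by as much in the other direction: 9.15, 9.30 and 8.99 FPKM in controls and 6.81, 6.21 and 6.74 FPKM after irradiation (-0.42, SE 0.048, adjusted p = 5.48e-05; 1.39-fold lower). The groups overlapped in neither gene. Of the annotated exon bases of Kif4, 15.1% lie opposite Pdzd11.

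Kif11, the motor that pushes the spindle poles apart, was at 34.9, 33.5 and 34.0 FPKM in controls and 37.9, 35.9 and 38.4 FPKM after irradiation (0.13, SE 0.035, limma adjusted p = 0.0106). Kif2c, which depolymerizes microtubules at kinetochores, fell from 24.1, 22.5 and 21.4 FPKM to 19.2, 20.0 and 20.3 FPKM (-0.18, SE 0.046, adjusted p = 0.00684). Hmmr, a spindle pole protein, rose from 19.1, 19.1 and 18.4 FPKM to 22.7, 19.4 and 22.4 FPKM (0.18, SE 0.055, limma adjusted p = 0.0185). Irradiated replicate 2 of Hmmr lay close to the controls, and the call was lost without control replicate 3 or irradiated replicate 1 or 3 (adjusted p 0.0557 to 0.0707). Tpx2, the activator of Aurora A on the spindle, sat at the threshold (33.2 ± 1.5 and 31.0 ± 0.423 FPKM, adjusted p = 0.0495), and without control replicate 1 or 2 or irradiated replicate 1, 2 or 3 it was not called (up to 0.167), nor with a pseudocount of 0.1, with no filter, after rescaling or without the trend. Kif22, the chromokinesin with the highest level in this group, was not called at 77.1, 74.7 and 75.8 FPKM in controls and 71.5, 74.8 and 72.0 FPKM after irradiation, and was called lower only without irradiated replicate 2 (adjusted p = 0.0409). Nusap1, at 48.1 ± 0.805 and 47.0 ± 0.597 FPKM, and Kif15, at 13.1 ± 0.331 and 13.8 ± 0.282 FPKM, were not called either.

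Among the 7 midzone and cytokinesis genes 2 were higher, 1 was lower and 4 were not called. Kif20b, a kinesin of the midzone needed for abscission, had 14.5, 15 and 15.5 FPKM in controls and 19.8, 19.5 and 19.2 FPKM in irradiated libraries (0.36, SE 0.038, limma adjusted p = 3.33e-05; a ratio of 1.3). Anln, which encodes the ring scaffold anillin, rose from 7.03, 7.29 and 7.98 FPKM to 9.07, 8.93 and 8.75 FPKM (0.24, SE 0.051, adjusted p = 0.00321). The groups did not overlap in either gene. Ect2, the exchange factor that switches on RHOA at the division plane, fell from 35.1, 35.3 and 34.7 FPKM to 31.6, 29.8 and 30.2 FPKM (-0.19, SE 0.032, limma adjusted p = 0.000631). Racgap1, whose product binds ECT2 in the centralspindlin complex, was at 61.2, 59.7 and 61.9 FPKM in controls and 58.5, 59.5 and 59.9 FPKM in irradiated libraries and was not called (-0.04, interval -0.10 to 0.02). Its partner Kif23 (31.8 ± 1.57 and 30.3 ± 0.629 FPKM), the microtubule bundler Prc1 (51.0 ± 1.12 and 48.7 ± 0.674 FPKM) and Kif20a (10.6 ± 0.252 and 10.9 ± 0.416 FPKM) were not called. For Kif20a 29.3% of the annotated exon bases lie opposite Cdc23, and for Prc1 11.1% lie opposite Rccd1.

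At anaphase onset 1 of 4 genes rose, 2 fell and 1 was not called. Cdc20, the activator of the APC/C in mitosis (chromosome 4), stood at 143.5, 148.0 and 146.8 FPKM in controls and at 127.1, 128.9 and 131.4 FPKM after irradiation. All irradiated libraries were lower (difference -0.18, SE 0.024, limma adjusted p = 0.000149). For Cdc20, 11.4% of 50-base words are shared with pseudogenes. Pttg1, which encodes securin, the inhibitor of separase, fell from 20.3, 20.7 and 20.7 FPKM to 17, 17.5 and 18.6 FPKM (-0.21, SE 0.040, adjusted p = 0.00137). Espl1, which encodes separase itself, had 4.90, 4.16 and 4.63 FPKM in controls and 5.22, 5.43 and 5.33 FPKM in irradiated libraries (0.19, SE 0.059, adjusted p = 0.0204 by limma). The rise of Espl1 was lost without control replicate 2 (0.0777) or irradiated replicate 2 (0.0571). Securin and separase RNA thus had estimates of opposite sign. Ube2c, the APC/C ubiquitin-conjugating enzyme and the most abundant of the 54 genes, was at 175.8, 173.0 and 180.4 FPKM in controls and 180.9, 185.3 and 175.3 FPKM in irradiated libraries. Its groups overlapped and it was not called (0.03, interval -0.03 to 0.09). For Ube2c 22.8% of the annotated exon bases lie opposite Tnnc2.

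Top2a, the topoisomerase that untangles sister chromatids, rose from 67.3, 68.2 and 66.7 FPKM to 73.8, 72.5 and 73.0 FPKM (0.12, SE 0.025, limma adjusted p = 0.00278). Foxm1, the transcription factor of G2 and M genes, was not called at 5.80, 6.21 and 6.53 FPKM in controls and 6.13, 7.21 and 7.47 FPKM in irradiated libraries. Its groups overlapped, its interval of -0.01 to 0.30 was the widest among the members not called, and without irradiated replicate 1 it was called higher (adjusted p = 0.015).

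Genes of mitosis outside the 54 were taken from 9 further lists. These lists held 171 symbols, of which 163 were tested: 44 rose, 36 fell and 83 were not called, with a median difference of 0.03. Of these 27.0% were higher and 22.1% lower, while 18.5% of the 54 members were higher and 27.8% lower. The difference was not tested. Over all genes tested 25.8% were higher and 28.9% lower, and each list below is to be read beside these shares. In the list of other checkpoint and cohesion protection genes 9 of 12 rose, 2 fell and 1 was not called (median 0.16). The 3 with the smallest p were Zw10, Kntc1 and Zwilch, which encode the RZZ complex that holds MAD1 and dynein at unattached kinetochores. Zw10 rose from 14.9 ± 0.262 to 19.4 ± 0.286 FPKM, Kntc1 from 3.20 ± 0.108 to 4.46 ± 0.111 FPKM and Zwilch from 9.43 ± 0.774 to 11.5 ± 0.274 FPKM, with differences of 0.36, 0.38 and 0.27. These exceeded the spread between libraries (limma adjusted p = 2.15e-05, 0.000167 and 0.00246), and in all 3 genes every irradiated library was above every control.

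Other centromere and kinetochore genes rose in 6 of 26 cases and fell in 8 (median -0.0028). Cenpl, of the inner kinetochore, and Zwint, which links the outer kinetochore to the RZZ complex, fell with differences of -0.27 and -0.18. Among other spindle genes 8 of 31 rose and 10 fell. Stmn1, the microtubule destabilizer stathmin, fell from 1671 ± 26.8 to 1463 ± 3.65 FPKM (-0.19), while Tubgcp4, of the gamma-tubulin ring, rose from 3.99 ± 0.266 to 6.27 ± 0.487 FPKM. Kifc1, a minus-end motor that bundles spindle microtubules, was at 1.07, 0.997 and 0.799 FPKM in controls and 1.76, 2.51 and 2.56 FPKM after irradiation. It passed the filter on low values only through the irradiated libraries, so its place among the 8 that rose is no support for a change. Among centriole and centrosome genes 1 of 13 rose and 4 fell, with Nedd1 at -0.19, Cep63 at -0.16 and Cep135 at -0.21. Cep63 was not called without control replicate 2 or 3 or irradiated replicate 2 or 3 (adjusted p 0.0654 to 0.102), nor was Cep135 without control replicate 2 or 3 or irradiated replicate 2 (0.0714 to 0.0789).

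Most subunits of the APC/C and of cohesin and condensin were not called. In the APC/C list 3 of 17 rose and 2 fell, with Anapc2 at -0.18, Anapc1 at 0.18 and Anapc10 at 0.19. In cohesin and condensin 3 of 19 rose and 3 fell: the cohesin regulator Pds5a rose by 0.21, and the kleisin Rad21, which separase cuts, and Ncaph2 of condensin II had differences of -0.31 and -0.13. Other regulators of entry and exit rose in 6 of 15 cases and fell in 2, with the CDK-binding Cks1b at 0.10, the phosphatase subunit Ppp2r2a at 0.15 and Cdc25a at -0.18. Of 13 other cytokinesis genes 3 rose and 2 fell: Rhoa and Arhgap11a both rose by 0.18, and Chmp4b, of the abscission machinery, had a difference of -0.38. In the list of DREAM, MuvB and B-MYB regulators 5 of 18 rose and 3 fell. Tfdp1 and Tfdp2, the DNA-binding partners of E2F factors, moved in opposite directions, by 0.20 and -0.40, and E2f4 rose by 0.18.

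**Figure D4:**
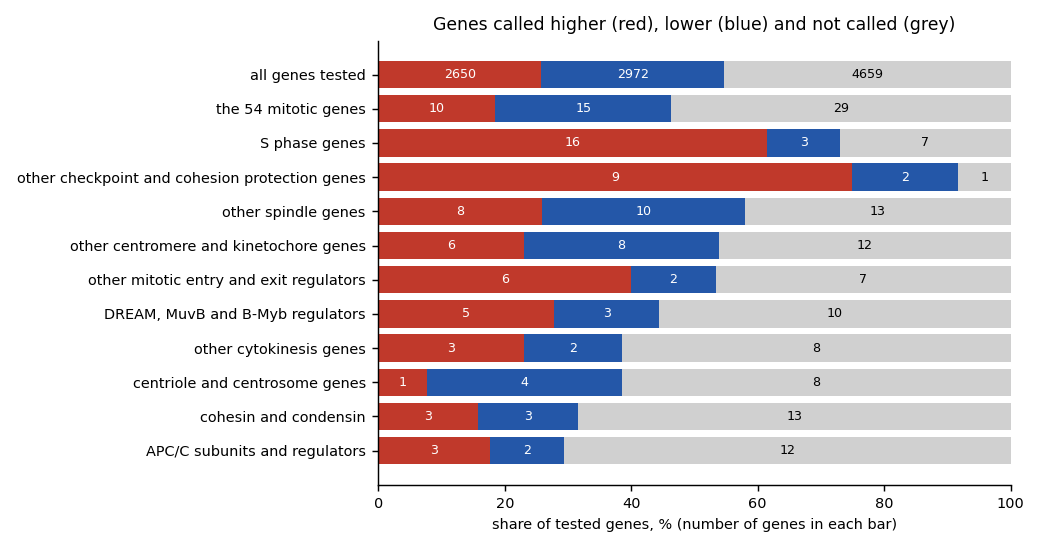
Share of tested genes called higher (red), called lower (blue) and not called (grey) in irradiated HSCs, with the number of genes in each bar, for all genes, the 54 mitotic genes, the S phase list and 9 lists of other mitotic genes. The mitotic genes (10 higher, 15 lower) lie near all genes, while 16 of 26 S phase genes and 9 of 12 other checkpoint genes were called higher.

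The genes of DNA replication, which precede the mitotic genes in the cycle, were set beside them. In the list of replication licensing and S phase, 16 of 26 were higher (61.5%), 3 lower (11.5%) and 7 not called. Over all genes tested 25.8% were higher and 28.9% lower, with a median of -0.0072. The median of the S phase list was 0.14, against -0.00099 for the 54 mitotic genes. The difference between the lists was not tested. Mcm2, Mcm3 and Mcm5, subunits of the replicative helicase, rose from 137 ± 1.2 to 163 ± 1.43 FPKM, from 203 ± 2.86 to 236 ± 1.87 FPKM and from 145 ± 2.64 to 170.0 ± 1.32 FPKM. Mcm4 and Mcm6 of the same helicase rose by 0.16 and 0.18, but Mcm7 was not called at 204 ± 4.16 and 202 ± 2.97 FPKM, nor was the polymerase clamp Pcna at 413 ± 7.39 and 413 ± 12.5 FPKM. The differences of Mcm2, Mcm3 and Mcm5 were 0.25, 0.21 and 0.22. The S phase genes called lower were Gins1, Gins4 and Tk1, at -0.16, -0.09 and -0.08. The mitotic genes had no common direction to set beside these. The S phase and G2 cyclin Ccna2 differed by 0.08 and the B cyclins Ccnb1 and Ccnb2 by -0.09 and -0.17. Kif18a, Kif20b and Bub1 differed by 0.44, 0.36 and 0.22. The limits of the Ccna2 and Ccnb1 values are given above.

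Markers of other blood cells differed between the groups as well, and their part in the mitotic differences was not tested. Of the markers of multipotent and lymphoid-primed progenitors 7 of 9 were tested and called lower, and their summed level was 988 to 994 FPKM in controls and 600.4 to 612.1 FPKM in irradiated libraries; Ccr9 and Rag1 were under 1 FPKM throughout. Megakaryocyte markers rose in 6 of 7 cases (summed level 199 to 206 and 272 to 291 FPKM; Gp6 at 0 in all libraries), granulocyte progenitor markers in 6 of 10 with 3 lower (5427 to 5465 and 6314 to 6477 FPKM), and erythroid markers in 5 of 8 with 3 lower (557 to 560.0 and 572 to 576 FPKM; Alas2 under 1 FPKM). Monocyte markers fell in 7 of 8 cases (604 to 615 and 516 to 519.6 FPKM). The sums of B cells (78.4 to 85.8 and 59.1 to 59.9 FPKM, mostly Cd79b), T and NK cells (529 to 553 and 649 to 658 FPKM, nearly all Nkg7) and endothelial and stromal cells (27.9 to 30.7 and 20.8 to 21.5 FPKM) also differed. In the B cell list 3 of 4 tested genes were lower, but Cd79a was higher (7.07 ± 0.777 and 8.67 ± 0.283 FPKM). The T and NK list had 2 of 4 higher and 2 lower, and the endothelial and stromal list 4 of 4 lower. Ms4a1, Pax5 and Ebf1, Cd3e, Cd3d, Cd3g and Cd8a, and Cdh5, Kdr, Lepr, Col1a1 and Pdgfra were under 1 FPKM in all libraries, as was the monocyte marker Fcgr1, and of these Cd3g and Pdgfra were at 0. Il7r and Rag2 of the progenitor list, Ltf of the granulocyte list, Adgre1 of the monocyte list, Cd4 of the T and NK list and Cldn5 of the endothelial list were under 1 FPKM in every irradiated library. They passed the filter only through the controls, so their calls add no support to these counts. The sorted and HSC markers summed to 390.0 to 401 FPKM in controls and 321 to 334 FPKM in irradiated libraries, with 2 of 8 higher and 4 lower. Of the 9 HSC markers Fgd5 alone was under 1 FPKM in all libraries.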

How the data were processed

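RNA-seq of sorted HSCs was compared in 6 libraries, grouped by their titles as 3 control and 3 irradiated. The values the authors deposited are read here as FPKM, the unit StringTie writes, since the columns name no unit and the values are not whole numbers. The submitters' processing notes name fastp, HISAT2, StringTie and GRCm38 (mm10). Their versions, the annotation and settings are not stated in what was used here. The tables held 21878 entries, of which 27 with a calendar date in place of a symbol were left out.

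Genes at 1 FPKM or more in at least 3 libraries (10281) went into a limma fit (version 3.58.1, R 4.3.3) of log2(FPKM + 1), 2-sided, with moderated variances, a trend and no replicate block (Benjamini-Hochberg threshold 0.05 over all tested genes). This scale understates changes of low genes. Between 24.8% and 28.7% of low values in single-transcript genes lay within 0.01 of a whole multiple of a step, too few to recover reads. Gene positions, exon overlaps and shared 50-base words come from GENCODE M21 (GRCm38), promoters from RefSeq. No set test was run, so lists are given as counts and medians beside all genes. Members and lists were chosen with earlier results of these data known. Values in every library are given for the 8 largest called rises and 8 largest called falls and, in each role, for the gene with the highest control mean and the gene with the smallest p; in other lists the 3 smallest p are named, except for an item that is not reported here. Mki67, Foxm1, Mcm4, Mcm6, Mcm7, Pcna, Gins1, Gins4, Tk1 and the gate markers were added after their values were seen. Alternatives were 2 other pseudocounts, 2 other filters, rescaled libraries, no trend, a replicate block and leaving out each library.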

Additional observations from a re-analysis of the deposited data

How the results depend on the processing

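No named gene that was called changed direction under the 13 alternatives: of 1126 values of named genes 1076 had the same call, 43 lost it and 7 gained one. Of the members, 7 of the 10 called higher and 11 of the 15 called lower had the same call under all of them, and 25 of the 29 others were never called. Across the alternatives other than the replicate block and the left-out libraries, 9 to 11 members were higher and 13 to 15 lower, and leaving out 1 library gave 8 to 10 and 12 to 14. The median difference of the members was 0.012 with a filter of 5 FPKM, which leaves out Cenpf, 0.0060 after rescaling by the median of ratios, and -0.0091 to 0.0085 on leaving out 1 library. Leaving out 1 library gave 1 to 3 S phase genes called lower, the 1 being without irradiated replicate 1. Deviations from the group mean correlated at 0.009, -0.031 and -0.049 between same-numbered libraries and at -0.015 to 0.045 between the others. With 3 libraries per group this cannot tell whether same-numbered libraries were collected as pairs, so a replicate block was fitted as well. With the replicate block 11 members were higher, 12 lower and 31 not called, against 10, 15 and 29 without it: Ccnf, Cenpf and Tpx2 lost their call and Foxm1 gained one; over all genes it gave 2539 higher and 2840 lower. Depth limits Cenpv and Cdc25c most, with about 115 and 209 fragments in their lowest library.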

Other observations

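Regulators of G1 differed in both directions. Of 13 tested G1 cyclins and CDK inhibitors 3 rose (23.1%), 5 fell (38.5%) and 5 were not called. Over all genes tested 25.8% were higher and 28.9% lower. Cdkn2d, an inhibitor of CDK4 and CDK6, fell from 66.2 ± 3.07 to 54.5 ± 0.209 FPKM (limma adjusted p = 0.000104) and Ccnd2, a D-type cyclin, from 45.0 ± 0.302 to 39.4 ± 0.470 FPKM (0.000263). Cdk6, the kinase that D cyclins activate, rose from 42.5 ± 0.204 to 47.3 ± 0.254 FPKM (limma adjusted p = 0.000831). In all 3 genes the groups did not overlap.

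By their medians, members called higher and members called lower differed in control level, transcript length and GC content. The median control mean was 15.5 FPKM for the 10 higher and 35.1 FPKM for the 15 lower. The median length of the longest annotated transcript was 4248.5 and 2842 bases, and the median GC content 42.8% and 47.3%. Cenpv, the member with the largest rise, goes the other way, with the shortest transcript (1032 bases) and the highest GC content (61.6%) of the 54. Over all 54 members the Spearman correlation across genes of the difference with length was 0.153 and with GC content -0.088, and over 9962 tested genes with a transcript 0.093 and 0.006. These genes share the same libraries and are not independent, and both relations are weak.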
